A study of Mus musculus with 14 samples.

Results

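Crabp2, Rasl11b, Tfpi2 and Adcy7 are described here, 4 genes chosen because their signals were higher in mouse corneal stromal cells grown with serum and TGF-beta1 than in cells grown with serum alone. They are 4 of the 8251 genes named by a single symbol on the array, and each is read by 1 probe set, a group of short probes for 1 transcript. The probe sets were 100127_at for Crabp2, 95418_at for Rasl11b, 94383_at for Tfpi2 and 103392_at for Adcy7. The values that chose them are the signals of the myofibroblast and fibroblast arrays, so the difference between those cultures is given as a description with no test.

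Gene expression was measured on Affymetrix MG_U74Av2 arrays, 1 per sample, with 14 arrays in 5 groups from CD-1 mice. Myofibroblast culture (3 arrays) was primary stromal cells of mice aged 7 to 8 weeks in DMEM with 10% fetal bovine serum and 10 ng/ml TGF-beta1. Fibroblast culture (3 arrays) had the same medium without the factor, and keratocyte culture (3 arrays) had 1% platelet-poor horse serum instead. Adult stroma (3 arrays) was dissected at 7 to 8 weeks and P10 stroma (2 arrays) at postnatal day 10, without culture. The labels do not give how long the cells were treated, how many animals stand behind an array, or whether replicates came from separate cultures, so p-values measure only the spread between these arrays.

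TGF-beta is a secreted growth factor that binds a pair of receptor kinases at the cell surface. The receptors phosphorylate Smad proteins, which enter the nucleus and regulate genes of matrix, contraction and growth arrest. In the wounded cornea it is known for turning stromal cells into myofibroblasts, contractile cells that scatter light and lay down scar matrix. The 4 genes act at different places in the cell. Crabp2 encodes a protein that carries retinoic acid from the cytoplasm to its nuclear receptors, and Rasl11b encodes a small GTPase of the Ras family. Tfpi2 encodes a secreted Kunitz-type inhibitor of serine proteases such as plasmin, which is held in the matrix. Adcy7 encodes an adenylyl cyclase of the plasma membrane, which makes the messenger cyclic AMP.

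Promoter sequences are shown because the signals of the 4 genes were high in the same culture. RefSeq windows from 250 bases before to 50 bases after a transcript start (build GRCm38.p6) were at hand for 3 of the 4 genes, 7 windows in all, with 1 for Rasl11b and 3 each for Tfpi2 and Adcy7. The windows printed are the one of Rasl11b and, for the other genes, the one that holds an AP-1 match. They lie at chr5:74195076-74195375 on the plus strand, chr6:3968326-3968625 on the minus strand and chr8:88288816-88289115 on the plus strand. Capitals mark matches, on either strand, to CAGAC (Smad box), TGANTCA (AP-1), GGGCGG (Sp1), GGAATG (TEAD) and AGGTCA (bound by nuclear receptors such as that of retinoic acid).
Rasl11b: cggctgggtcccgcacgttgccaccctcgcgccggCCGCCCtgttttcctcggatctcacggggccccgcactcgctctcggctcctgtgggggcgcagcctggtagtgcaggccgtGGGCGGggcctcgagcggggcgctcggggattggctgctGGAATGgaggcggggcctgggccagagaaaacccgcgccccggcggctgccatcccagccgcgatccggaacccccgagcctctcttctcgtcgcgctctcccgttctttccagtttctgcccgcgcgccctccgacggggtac
Tfpi2: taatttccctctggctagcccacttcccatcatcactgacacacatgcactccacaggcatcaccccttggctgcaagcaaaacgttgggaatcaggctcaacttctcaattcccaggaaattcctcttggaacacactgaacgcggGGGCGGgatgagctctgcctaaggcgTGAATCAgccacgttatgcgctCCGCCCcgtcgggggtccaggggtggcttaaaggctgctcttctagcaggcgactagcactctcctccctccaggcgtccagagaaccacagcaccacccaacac
Adcy7: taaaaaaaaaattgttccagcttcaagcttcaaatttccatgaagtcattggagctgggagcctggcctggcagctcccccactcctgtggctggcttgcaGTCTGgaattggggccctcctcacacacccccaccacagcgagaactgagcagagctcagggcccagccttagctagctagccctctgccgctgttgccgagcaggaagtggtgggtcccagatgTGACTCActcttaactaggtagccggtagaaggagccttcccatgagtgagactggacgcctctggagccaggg

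The Rasl11b window held 2 Sp1 matches and a TEAD match, and its 300 bases were 73% G or C with 37 CpG pairs, against a median of 52.7% and 7 over all 32851 windows. An AP-1 match was found at -77 from the start in Tfpi2 and at -24 in Adcy7, in 2 of the 7 windows, and 7.81% of all windows held one. The Smad box was in 5 of the 7 windows, all 3 of Adcy7 and 2 of Tfpi2, and in 49.6% of all windows; the Tfpi2 windows concerned overlap and share their matches. Sp1 matches were in 3 of the 7 (35.7% of all windows), TEAD in 1 (14.7%) and the CArG box, the site of serum response factor, in 0 (1.63%). The nuclear receptor motif was in 3 (16.3%), and 2 of these are the same overlapping Tfpi2 windows, which share 1 match. The matches describe letters in these windows and are not shown to be sites.

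The level of background was read from 19 control probe sets whose transcripts no sample had received, with a 95th percentile of 137.7 over all arrays. Signals are on the linear scale of the deposited table, and those below 137.7 are called within background here. The highest single control value was 256.8, and all Tfpi2 signals of myofibroblast culture and Adcy7 on its replicate 2 lie under that value. Calling them above background therefore rests on the percentile chosen. The lower bounds on fold given below for Crabp2, Rasl11b and Tfpi2 rest on it too, and a higher level would make them smaller. Array medians lay between 102 and 135.6. The ratio of the 3' to the 5' probe set of Gapdh, a measure of RNA integrity, was 0.756 to 0.819 in myofibroblast, 0.795 to 0.859 in fibroblast and 0.843 to 0.852 in keratocyte culture, 0.908 to 2.12 in adult and 0.896 to 0.936 in P10 stroma. Fibroblast replicate 3 stood apart from the other fibroblast arrays. Acta2, a contractile actin used as a myofibroblast marker, was at 638 there and at 2544 and 2954 on replicates 1 and 2, and Aldh3a1, an enzyme abundant in keratocytes, was at 3721 against 751 and 222. Differences of the 4 genes, list counts and calls between myofibroblast and fibroblast culture are given with and without that array.

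Crabp2 had signals of 373, 381 and 386 in myofibroblast culture, against 49.3, 62.4 and 6.37 in fibroblast culture. The mean was 380 ± 6.67 in myofibroblast and 39.4 ± 29.3 in fibroblast culture (SD, n = 3 each). Scaled to a common median, the myofibroblast arrays were at 376, 444 and 398, with a coefficient of variation of 8.59%, against 1.76% as deposited. The lowest fibroblast value was on replicate 3, and all 3 fibroblast arrays were within background. Taking each fibroblast array at no less than 137.7, Crabp2 was at least 2.76-fold higher in myofibroblast culture. On the scale of log2(signal + 16) the difference was 3.03, which ranked 1st of 10370 probe sets, and 2.47 without fibroblast replicate 3, where it ranked 2nd of 10374. These sizes depend on the constant added to signals within background: Crabp2 ranked 3rd with 1 added and 1st with 64, Rasl11b 11th and 4th, Tfpi2 8th and 9th, and Adcy7 22nd and 8th.

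Rasl11b had signals of 429, 286 and 446 in myofibroblast culture, against 68.5, 45.5 and 78.7 in fibroblast culture. Its means were 387 ± 87.8 in myofibroblast and 64.2 ± 17 in fibroblast culture (SD, n = 3 each), with every fibroblast array within background. It was at least 2.76-fold higher in myofibroblast culture, and its difference of 2.33 on the log2(signal + 16) scale (2.46 without fibroblast replicate 3) ranked 4th. Replicate 2 was the lowest array of both cultures.

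Tfpi2 had signals of 237, 153 and 217 in myofibroblast culture, against 42.3, 27.5 and 16.3 in fibroblast culture. It averaged 203 ± 43.7 in myofibroblast culture and 28.7 ± 13 in fibroblast culture (SD, n = 3 each). Myofibroblast replicate 2, at 153, lay just above the level of background. The bound on the rise was at least 1.45-fold, and the difference of 2.31 on the log2(signal + 16) scale, 2.10 without fibroblast replicate 3, ranked 5th.

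Adcy7 had signals of 707, 228 and 542 in myofibroblast culture, against 185, 54.9 and 123 in fibroblast culture. Its means were 492 ± 244 and 121 ± 65.1 (SD, n = 3 each), so that the arrays of each culture were widely spread. The lowest myofibroblast array, 228, was above the highest fibroblast array, 185, and 1 of the 3 fibroblast arrays was above background. The difference on the log2(signal + 16) scale was 1.88 (1.95 without fibroblast replicate 3) and ranked 14th. For all 4 genes the lowest myofibroblast array lay above the highest fibroblast array, which choosing them as higher there makes likely. Such a separation upward was seen in 4.91% of all probe sets.

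**Figure D1:**
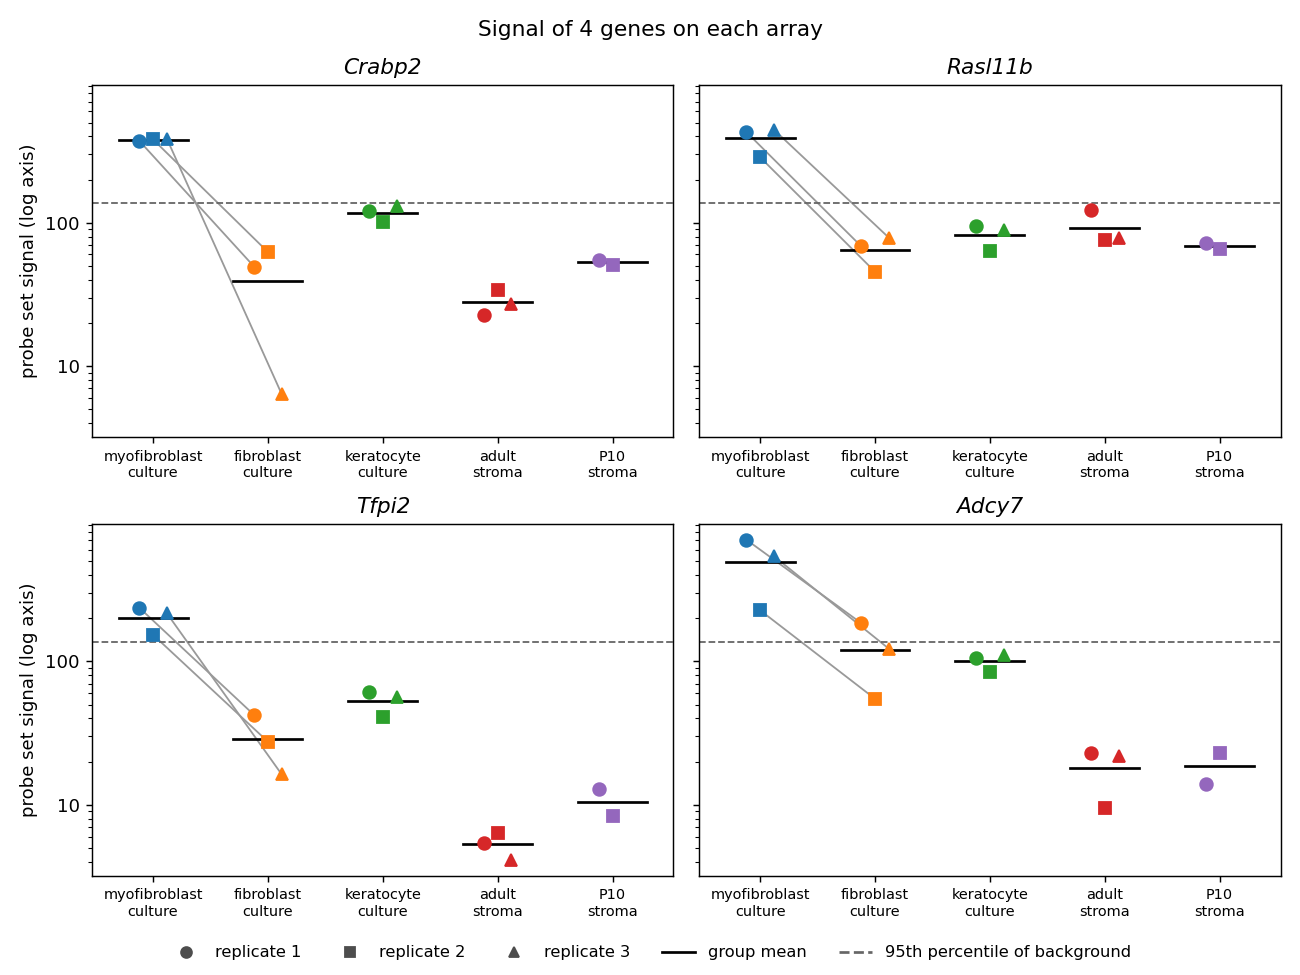
Probe set signal (log axis) of each gene on each of the 14 arrays, grouped by culture or tissue, with group means as black bars, grey lines joining myofibroblast and fibroblast arrays of the same replicate number, and a dashed line at the 95th percentile of background (137.7). All 12 signals of the 4 genes in myofibroblast culture lie above the line, and of the other signals only Adcy7 on fibroblast replicate 1 (185) does.

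The replicate numbers tied myofibroblast and fibroblast arrays together. Over all probe sets the deviations from the group means correlated at 0.623, 0.682 and 0.533 for numbers 1, 2 and 3. Every pair of unlike numbers was below 0, but deviations from a mean sum to 0. Values below 0 there follow in part from the values above 0 for like numbers. Within a number the rise of Adcy7 hardly varied, at 1.85, 1.78 and 2.01 on the log2(signal + 16) scale. The SD of these differences was 0.117, while the log2 signals had an SD of 0.82 among myofibroblast and 0.762 among fibroblast arrays. Rasl11b behaved likewise, with differences of 2.40, 2.30 and 2.29 and an SD of 0.0617, against 0.339 among myofibroblast and 0.323 among fibroblast arrays. All Rasl11b fibroblast arrays and 2 of the 3 for Adcy7 were within background, so these spreads depend on the added constant. With 64 added the SD of the differences was 0.217 for Adcy7, against 0.731 among myofibroblast and 0.538 among fibroblast arrays. For Rasl11b it was 0.113, against 0.3 among myofibroblast and 0.197 among fibroblast arrays.

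Crabp2 and Tfpi2 did not share that pattern. The differences of Crabp2 were 2.57, 2.34 and 4.17, with an SD of 0.994, against 0.0244 among myofibroblast and 0.978 among fibroblast arrays. Those of Tfpi2 were 2.12, 1.96 and 2.85, with an SD of 0.475, against 0.306 among myofibroblast and 0.426 among fibroblast arrays. In both genes number 3 gave the largest difference, and it is there that the fibroblast array had its lowest signal, within background. Arrays of number 2 also had the lowest median signal in each of these cultures, and likewise in keratocyte culture and adult stroma. After scaling all arrays to 1 common median, Adcy7 was at 713, 265 and 560 in myofibroblast culture and at 176, 61 and 120 in fibroblast culture, so number 2 remained lowest.

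**Figure D2:**
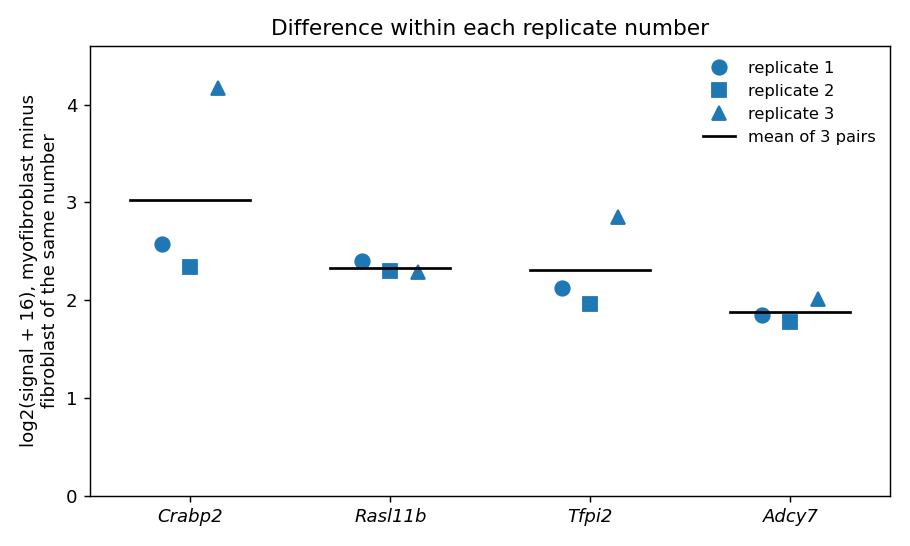
Difference in log2(signal + 16), myofibroblast minus fibroblast array, within each replicate number for each gene, with the mean of the 3 pairs as a bar. The points of Rasl11b (2.29 to 2.40) and Adcy7 (1.78 to 2.01) lie close together, and number 3 stands above the others for Crabp2 (4.17) and Tfpi2 (2.85).

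Keratocyte culture, adult stroma and P10 stroma were not used to choose the genes. In keratocyte culture no array of any of the 4 genes exceeded 137.7. The array medians of that culture, 117.7 to 135.6, also lay below 137.7, so most probe sets were within background. Crabp2 was at 121, 100.3 and 132 there, above every fibroblast array, a separation found in 10.7% of all probe sets. Tfpi2 was at 61.1, 40.7 and 56.1, and the lowest of these lay just under fibroblast replicate 1, at 42.3. The keratocyte signals of Rasl11b, 94.7, 63.6 and 89.2, and of Adcy7, 106, 83.9 and 112, overlapped those of fibroblast culture. Differences between fibroblast and keratocyte culture were not tested for these genes, because the fibroblast arrays entered their choice. Of all probe sets 1.37% passed in that comparison, 0.193% higher and 1.18% lower in fibroblast culture, 142 in number, and the fit without fibroblast replicate 3 gave 59 calls.

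Keratocyte culture was also set against adult stroma. The 2 groups differ in culture, in low-serum medium and in cell make-up together, and these cannot be told apart here. Of the 4 genes 3 were higher in keratocyte culture by limma with Benjamini-Hochberg adjustment over 10370 probe sets. Tfpi2 was at 52.6 ± 10.6 in keratocyte culture and at 5.29 ± 1.1 in adult stroma, with 5.43, 6.32 and 4.13 on the adult arrays (adjusted p = 9.98e-05). Crabp2 was at 118 ± 15.9 in keratocyte culture and at 27.9 ± 5.54 in adult stroma, with 22.8, 33.8 and 27.1 on the adult arrays (adjusted p = 0.00214). Adcy7 was at 101 ± 14.7 in keratocyte culture and at 18.1 ± 7.46 in adult stroma, with 22.9, 9.53 and 22 on the adult arrays (adjusted p = 0.00295; SD, n = 3 each throughout). For each of these the arrays did not overlap, as for 29.3% of all probe sets upward, but both groups lay within background, so no fold is given.

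Rasl11b did not pass in that comparison, at 82.5 ± 16.6 in keratocyte culture and 92.2 ± 26.7 in adult stroma (SD, n = 3 each; adjusted p = 0.73). Its adult arrays were at 123, 75.7 and 78, and overlapped the keratocyte arrays. Of all probe sets 31.1% passed, 21.8% higher and 9.25% lower in culture, so that a rise was common in this comparison. Cell make-up moved with this comparison. All 13 corneal epithelium markers measured were lower in keratocyte culture, with a summed signal of 455 to 482 per array against 19828 to 23718 in adult stroma, and Itgb4, Col17a1 and Epcam at the floor of 1 on every keratocyte array. Of 11 macrophage and leukocyte markers 8 were higher, with summed signals of 3556 to 4591 in keratocyte culture against 994 to 1349 in adult stroma. Of the other lists, 5 of 6 pigment cell markers (summed 2417 to 2707 in culture against 866 to 935) and 3 of 5 Schwann cell and nerve markers (1494 to 1842 against 720 to 839, 1 lower) and 3 of 7 endothelium markers (1285 to 1591 against 623 to 822) were higher, and 7 of 8 retina markers (799 to 1073 against 1501 to 4320) and 3 of 6 lens markers (511 to 550 against 4640 to 7397) were lower. Of 9 myofibroblast and smooth muscle markers 6 were higher and 2 lower (11545 to 12795 in culture against 1687 to 2772). Of 9 keratocyte markers 5 were higher and 1 lower (9749 to 20009 against 17346 to 18447). The Gapdh ratio of 2.12 was that of adult replicate 1, and without that array Tfpi2, Crabp2 and Adcy7 still passed (adjusted p of 0.000566, 0.0113 and 0.00787). The part of these cell types in the differences of Tfpi2, Crabp2 and Adcy7 was not tested, and in samples of mixed cells fewer cells of a type and less RNA per cell cannot be told apart.

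Adult and P10 stroma differ in age. None of the 4 genes passed between them in the same limma fit, 0 also at an unadjusted p below 0.05, in which 3.71% of probe sets did, 0.453% higher and 3.26% lower in adult stroma. These 385 calls became 117 without P10 replicate 1, 133 without P10 replicate 2 and 220 without adult replicate 1. Crabp2 was at 27.9 ± 5.54 in adult (n = 3) and at 54.5 and 51 in P10 stroma (adjusted p = 0.473), and Tfpi2 at 5.29 ± 1.1 in adult and 12.8 and 8.29 in P10 stroma (adjusted p = 0.678). In both, every P10 array lay above every adult array, as in 24.3% of all probe sets. Rasl11b was at 92.2 ± 26.7 in adult and 72 and 65.3 in P10 stroma (adjusted p = 0.641), and Adcy7 at 18.1 ± 7.46 in adult and 13.9 and 23.2 in P10 stroma (adjusted p = 0.991). All these signals were within background. Adult and P10 stroma also differed in markers of cell types. In adult stroma 3 of 6 pigment cell markers were lower (summed 866 to 935 against 1923 to 5157), as was 1 of 8 retina markers. Of 13 corneal epithelium markers 3 were lower and 1 higher. Of 9 myofibroblast and smooth muscle markers 3 were lower and 1 higher. Their part in these results was not tested.

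The group means are given in order, though those below myofibroblast culture all lie within background and their order is not resolved there. From the highest mean down, Crabp2 ran from myofibroblast culture through keratocyte culture (118), P10 stroma (52.8) and fibroblast culture (39.4) to adult stroma (27.9), with the fibroblast arrays overlapping both tissues. Tfpi2 kept keratocyte (52.6) above fibroblast culture (28.7), and both cultures lay above P10 (10.5) and adult stroma (5.29). Adcy7 had fibroblast (121) and keratocyte culture (101) next to each other, with overlapping arrays, and both tissues far below at 18.5 and 18.1. For Rasl11b the 4 groups below myofibroblast culture had means from 64.2 to 92.2, and arrays of each overlapped those of at least one other.

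The label of the treated culture was checked with markers. Acta2 was at 3061, 2954 and 2932 in myofibroblast culture, against 2544, 2954 and 638 in fibroblast culture, and did not pass (adjusted p = 0.716 by limma). Tagln, the transgelin gene of smooth muscle, was at 3011, 2300 and 2371 in myofibroblast culture, against 2157, 2822 and 428 in fibroblast culture (adjusted p = 0.743). Of 9 myofibroblast and smooth muscle markers 0 passed, and 0 at an unadjusted p below 0.05, with summed signals of 10397 to 11433 in myofibroblast and 5215 to 11483 in fibroblast culture. Both markers were also high in keratocyte culture, at 3066 to 3347 for Acta2 and 2990 to 3799 for Tagln. For Acta2 every keratocyte array lay above every myofibroblast array, as did the summed signals of the 9 markers (11545 to 12795). These markers therefore did not set the treated culture apart from the other cultures. On fibroblast replicate 3, 7 of the 9 markers were below both other fibroblast arrays, and 6 of the 9 were still above background. Cnn1, the calponin of smooth muscle, was at 985 there, against 772 and 782 on replicates 1 and 2.

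Other genes of the TGF-beta pathway were set beside the 4. In the comparison of myofibroblast with fibroblast culture 111 of 10370 probe sets passed by limma (1.07%), 30 higher (0.289%) and 81 lower (0.781%), and 253 passed with the replicate number as a block (78 higher, 175 lower). The count was 61 without myofibroblast replicate 3, 81 without fibroblast replicate 3 and 16 with only these arrays in the fit. Among 16 TGF-beta ligands and their binding proteins 1 rose, Inhba, the chain of activin A, at 287, 327 and 353 in myofibroblast culture against 160, 167 and 81.8 in fibroblast culture (adjusted p = 0.0167). Of 11 receptors and co-receptors 0 passed by limma, also with the block (2 at an unadjusted p below 0.05). Of 10 Smads and regulators 1 rose, Skil, a repressor of Smads that is itself switched on by the pathway, at 107, 80.6 and 117 against 43.3, 24.1 and 33.3 (adjusted p = 0.0177), all within background.

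Among 34 established target genes of the factor 1 rose and 1 fell, and the median log2 difference was 0.26, against -0.055 over all genes. The gene that rose was Cdkn2b, an inhibitor of cyclin-dependent kinases, at 286, 164 and 263 in myofibroblast culture against 27.2, 40.4 and 41.1 in fibroblast culture (adjusted p = 0.00046). The gene that fell was Id3, an inhibitor of differentiation factors, at 653, 496 and 538 against 1239, 818 and 1168 (adjusted p = 0.0413). With the replicate block 6 rose and 2 fell, and Timp3, Vcan, Eln, Col3a1 and Itga5, genes of matrix, its inhibitors or its receptors, joined Cdkn2b, with adjusted p of 0.0109, 0.00388, 0.0109, 0.0483 and 0.0204, while Id2 joined Id3 (adjusted p = 0.00477). With the block Tgfb1, the gene of the factor itself, also rose, at 511, 268 and 473 in myofibroblast culture against 237, 132 and 167 (adjusted p = 0.0228, 0.103 without it), and Ltbp1, which binds its latent form, fell (adjusted p = 0.0432). Without both arrays of number 3, an alternative chosen after seeing the data, the blocked fit called 93 probe sets, 28 higher and 65 lower. Of these genes Cdkn2b (adjusted p = 0.00664) and Eln (0.000953) passed there, while Timp3 (0.148), Vcan (0.0584), Col3a1 (0.438), Itga5 (0.218), Id2 (0.0791), Id3 (0.146), Tgfb1 (0.24), Ltbp1 (0.163), Inhba (0.107) and Skil (0.133) did not. Eln was at 452, 1555 and 34.8 in myofibroblast culture against 123, 219 and 20.7 in fibroblast culture.

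Cdkn2b passed in every alternative run. Inhba was lost without myofibroblast replicate 2 (adjusted p = 0.0562) or 3 (0.0908), and Skil without myofibroblast replicate 1 (0.0874) or 3 (0.116) and without fibroblast replicate 2 (0.0505) or 3 (0.0579), and also with 1 added in place of 16 (0.276). Id3 was lost without any 1 of 5 arrays (adjusted p of 0.0536 to 0.174), fibroblast replicate 2 being the exception. Each of these was also lost with only the 2 cultures in the fit (adjusted p of 0.169 to 0.315). Markers of leukocytes moved in the same comparison, 1 of 11 lower and 3 lower with the block, with summed signals of 1314 to 2164 in myofibroblast and 1519 to 3036 in fibroblast culture. So did 2 of 9 keratocyte markers, Aldh3a1 and Aqp1, both lower, with summed signals of 7576 to 10066 in myofibroblast and 9366 to 18741 in fibroblast culture. Without fibroblast replicate 3, 0 of the 11 leukocyte markers and 1 of the 9 keratocyte markers, Aqp1, passed; Aldh3a1 did not (adjusted p = 0.128). Their part in the results was not tested.

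**Figure D3:**
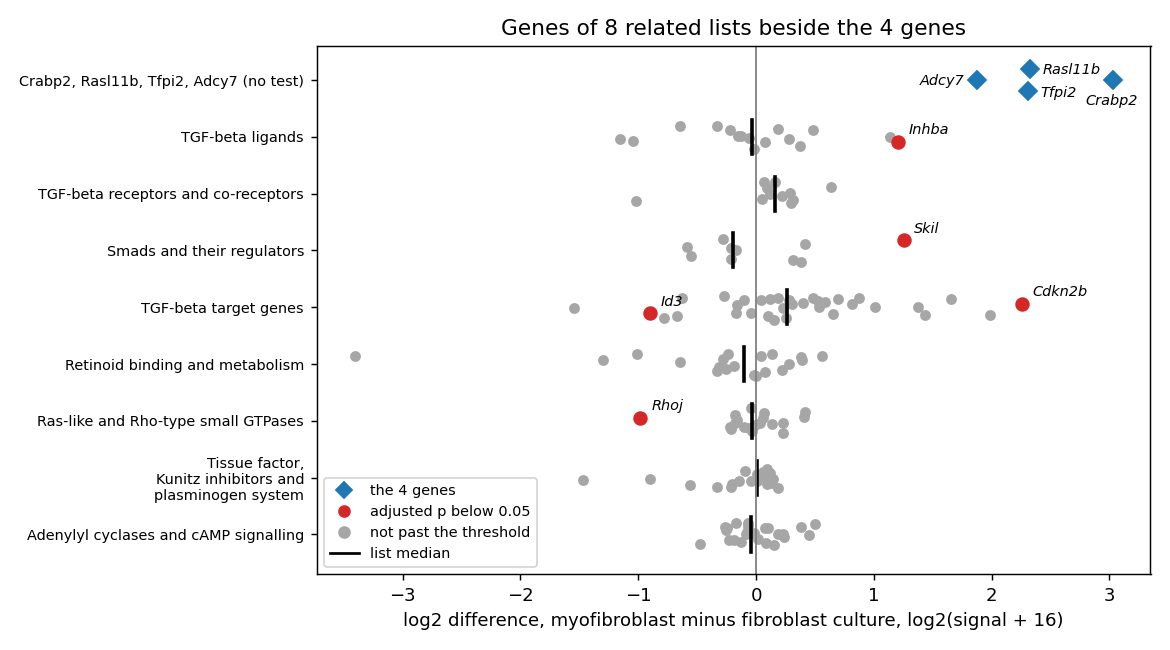
Log2 difference between myofibroblast and fibroblast culture for every measured gene of 8 lists (rows), with list medians as black bars and genes past adjusted p 0.05 in red; the 4 genes are drawn as diamonds at 1.88 to 3.03 and carry no test. Cdkn2b (2.26) is the only listed gene past the threshold that reaches the range of the 4, and its own mean in fibroblast culture, like theirs, was within background.

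Among relatives of the 4 genes none passed as higher. Of 20 genes for retinoid binding and metabolism 0 passed by limma (3 at an unadjusted p below 0.05), and Crabp1, the near relative of Crabp2, was at 214, 96 and 73.9 in myofibroblast culture against 212, 58 and 60.8 in fibroblast culture (adjusted p = 0.964). With the block Aldh1a1, which makes retinoic acid, fell (adjusted p = 0.0477), at 372, 118 and 848 against 785, 338 and 2333, and did not pass in the blocked fit without number 3 (0.331). Of 19 small GTPases 1 fell, Rhoj, a relative of Cdc42, at 230, 180 and 151 against 454, 343 and 351 (adjusted p = 0.019, lost without 3 of the 6 arrays, at 0.0688 to 0.115, with 1 added in place of 16, at 0.0571, and with only the 2 cultures in the fit, at 0.243). Of 20 genes of the tissue factor and plasminogen systems 0 passed (3 at an unadjusted p below 0.05). Tfpi, the paralogue of Tfpi2, was at 95.9, 100 and 94.6 against 138, 78.3 and 137 (adjusted p = 0.932), and Plau, the urokinase that makes plasmin, fell only with the block (adjusted p = 0.0109), at 115, 212 and 77.6 against 200, 752 and 340.1, and not without number 3 (0.16).

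Of 24 genes of adenylyl cyclases and cyclic AMP signalling 0 passed by limma, with or without the block (2 at an unadjusted p below 0.05 without it). Over all probe sets 8.05% had an unadjusted p below 0.05 in this comparison. In the pathway lists with calls, 5 of 16 ligands, 3 of 10 Smads and 12 of 34 target genes reached that level. So did 2 of 19 small GTPases. Marker lists held 6 of 11 leukocyte, 4 of 9 keratocyte, 3 of 7 endothelium and 2 of 5 Schwann cell and nerve markers. The other marker lists held none. The other cyclases measured, Adcy2, Adcy3, Adcy4, Adcy6, Adcy8 and Adcy9, differed by -0.25 to 0.38 on the log2(signal + 16) scale, against 1.88 for Adcy7. Adcy2, for one, was at 279 ± 14.4 in myofibroblast and 276 ± 21.2 in fibroblast culture (SD, n = 3 each; adjusted p = 1). The medians of the 4 lists of relatives lay between -0.10 and 0.0081, near the -0.055 of all genes. Levels of different probe sets are not compared here, since each has its own affinity.

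In keratocyte culture against adult stroma, where 21.8% of all probe sets rose and 9.25% fell, the lists held these calls. Of the 34 target genes 24 rose and 4 fell, with a median of 1.98 against 0.14 over all genes, led by Ccn2, a matricellular growth factor, at 3730 ± 173 in keratocyte culture and 56.2 ± 46.5 in adult stroma (adjusted p = 2.48e-08), and Lox, which cross-links collagen, at 2796 ± 86.7 and 37.8 ± 23.2 (adjusted p = 2.28e-10). Of 10 Smads and regulators 7 rose, among them Smad7, the inhibitory Smad, at 381 ± 69.3 in keratocyte culture and 47.5 ± 19.6 in adult stroma (adjusted p = 3.71e-06), and Skil, at 44.2 ± 7.16 and 5.06 ± 4.58 (0.000179). Of 16 ligands 7 rose, with Ltbp1 at 302 ± 80.4 and 25.8 ± 16.1 and Inhbb, an activin chain, at 102 ± 21.7 and 5.57 ± 7.92. Of 11 receptors 4 rose, with Eng, the co-receptor endoglin, at 1094 ± 239 and 283 ± 86.7 and Acvr1, an activin receptor, at 52.6 ± 4.36 and with every adult array at the floor of 1 (SD, n = 3 each throughout).

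Among relatives of the 4 genes, 3 of 20 retinoid genes and 5 of 19 small GTPases rose. So did 6 of 20 tissue factor and plasminogen genes and 9 of 24 cyclic AMP genes, against 21.8% of all probe sets. Of the retinoid genes 5 fell. The largest falls were of Adh1, an alcohol dehydrogenase that acts on retinol, at 467, 1 and 193 in keratocyte culture and 1965 to 2285 in adult stroma (adjusted p = 0.00395), and Aldh1a3, which makes retinoic acid, at 13.6 ± 9.56 and 223 ± 31.9 (6.43e-07). Crabp1 rose, as Crabp2 did, at 168 ± 41.4 and 47.7 ± 12.6 (adjusted p = 0.0102), and Tfpi rose, as Tfpi2 did, at 93.7 ± 19.2 and 3.67 ± 2.94 (7.97e-07). Of the tissue factor and plasminogen genes 3 fell, with the largest falls in Spint1, a Kunitz inhibitor of epithelia, at 2.94 ± 0.12 and 559 ± 188, and Wfdc2, also made by epithelia, at 17.5 ± 3.05 and 502 ± 222. The largest rises among small GTPases were of Rhoj at 403 ± 33.6 and 1.38 ± 0.328 and Rhoc at 761 ± 31.1 and 214 ± 28.7. Of the cyclic AMP genes 1 fell, and those that rose included Akap12, an anchor of protein kinase A, at 513 ± 98.7 and 23.5 ± 4.66, Gnai1, a G protein subunit, at 51.7 ± 9.7 and 5.44 ± 4.14, and Adcy6 at 237 ± 47 and 111 ± 17.6 (SD, n = 3 each throughout).

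Genes with the most similar course over the 14 arrays were found by the root mean square distance between profiles of log2(signal + 16), each centred on its own mean, among 7436 other genes. Such nearness is in part fixed by the choice of genes high in myofibroblast culture, and is a description. The nearest to Adcy7 was Ccn4, a matricellular protein, at a distance of 0.342 against a median of 1.49 over all genes, with means of 1279 ± 368, 289 ± 74.5 and 312 ± 44.8 in myofibroblast, fibroblast and keratocyte culture and 44 ± 15.7 in adult stroma (SD, n = 3 each). Its myofibroblast arrays were at 1583, 869 and 1384, so that number 2 was lowest, as in Adcy7. Tnfrsf11b, a decoy receptor of bone and vessel wall, came next (0.517).

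The nearest to Tfpi2 was Csrp2, a LIM protein of smooth muscle, at 0.377, with 583 ± 71.3 in myofibroblast and 173 ± 9.6 in fibroblast culture, followed by Skil (0.43) and Slc20a1, a phosphate transporter (0.45). The nearest to Rasl11b were Ank, which exports pyrophosphate (0.393), Tmeff1, a membrane protein (0.405), and Plk2, a polo-like kinase (0.493). Ank was at 1294, 768 and 1357 in myofibroblast culture and 502, 285 and 503 in fibroblast culture, again with number 2 lowest in both. The nearest to Crabp2 was Tfpi2 itself (0.491), ahead of Slc20a1 (0.548) and Ncam1, a cell adhesion molecule (0.619). Tfpi2 was also the third nearest to Adcy7 (0.551), while Adcy7 and Crabp2 lay 1.01 apart and Adcy7 and Rasl11b 0.984. The median distance over all genes was 1.32 from Crabp2, 0.992 from Rasl11b and 1.26 from Tfpi2. Adcy7 was thus about as far from Rasl11b as the median gene, at rank 3521 of 7436.

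**Figure D4:**
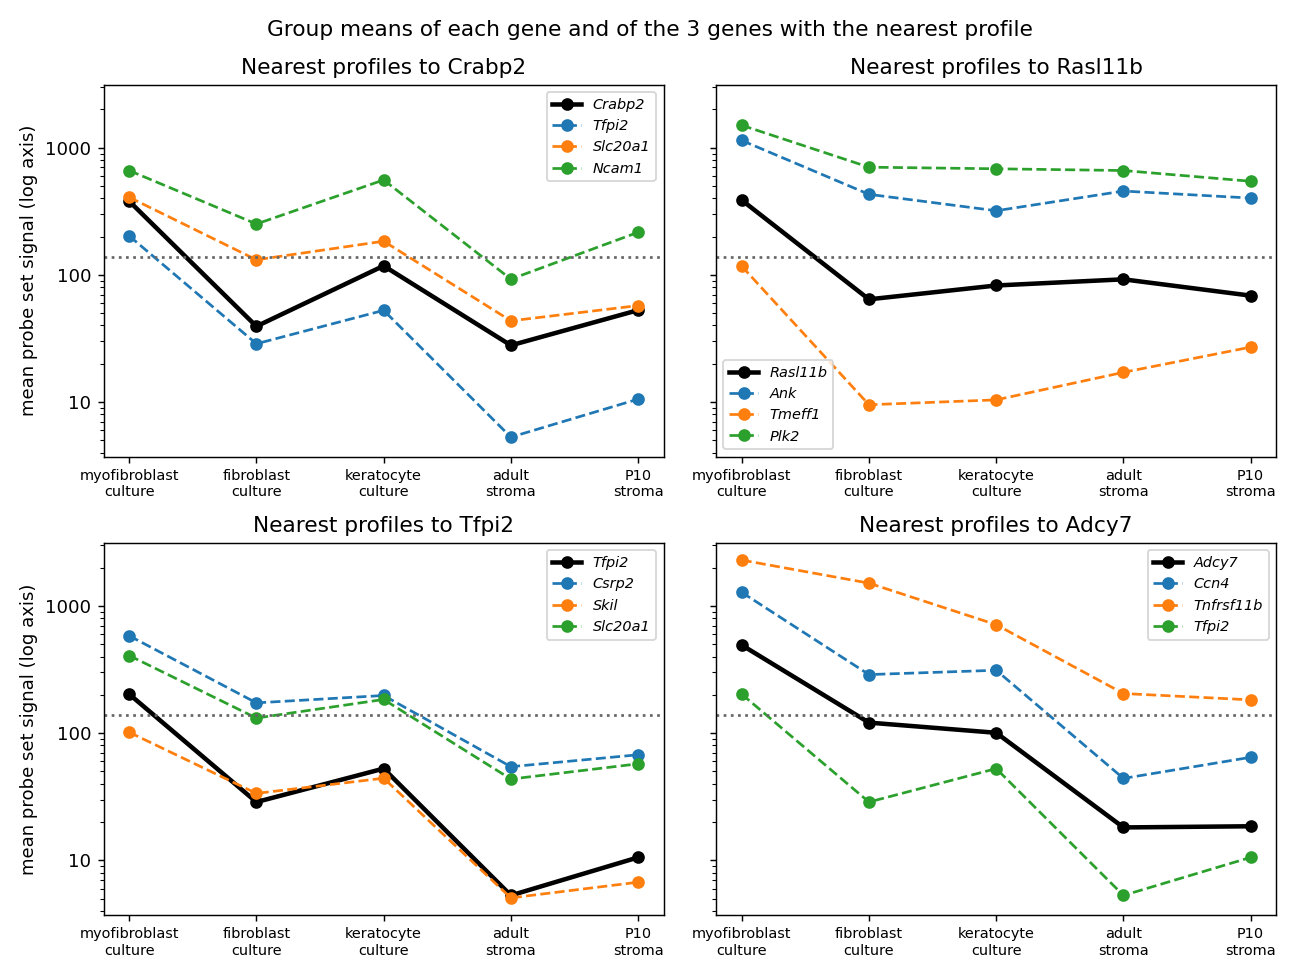
Mean probe set signal (log axis) in each group for each of the 4 genes (black) and for the 3 genes nearest in profile (dashed), with the 95th percentile of background as a dotted line. Only shapes are compared, not heights: every line is highest in myofibroblast culture. All lines except those of Crabp2, Rasl11b, Ank and Tmeff1 are lower in both tissues than in any culture.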

How the data were processed

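Total RNA (5 µg per sample, extracted with TRIzol) was labelled for 1 array per sample. Per the labels, the authors computed signals with Microarray Suite 5.0, scaled to a target of 150. The deposited intensity values are linear probe set signals with a floor at exactly 1; 2% trimmed means of 164.3 to 224.7 leave the scaling unsettled, and no detection calls were used. Precision is limited by how many arrays a group has.

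Of 12488 probe sets 66 controls were removed, and those with a mean of 50 or more in at least 1 group were kept (10370), including all 4 members, each of which passed in myofibroblast and keratocyte culture at least. Of 12422 probe sets 10833 had 1 symbol, 396 several and 1193 none; a gene stood for its brightest kept probe set. The fit, in limma 3.58.1 under R 4.3.3, used log2(signal + 16) (all 14 arrays, 1 mean per group, 9 residual degrees of freedom, two-sided, adjusted p below 0.05 by Benjamini-Hochberg), after a test on simulated data. The replicate numbers were taken to pair myofibroblast and fibroblast arrays only, read from the data (correlations over 0.1 for each number), not from the labels. Fibroblast and keratocyte arrays of like number correlated at 0.197, 0.572 and 0.0694, so that number 3 alone fell short of that level. Unlike numbers there lay between -0.509 and 0.325. Members, lists and tests were chosen with earlier results of these data known. Named were the 4 genes, the 3 nearest in profile to each and, of each list, up to 4 genes past the threshold for myofibroblast minus fibroblast and 2 for keratocyte minus adult; markers, relatives of the members and genes called with the block were added after their values were seen. Alternatives were other added constants, filters and scalings, a fit with 2 groups, the replicate block, no variance trend and leaving out each array. The planned use of other probe sets was not run, as each gene had 1.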

Additional observations from a re-analysis of the deposited data

How the results depend on the processing

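For Crabp2, Tfpi2 and Adcy7 the rise in keratocyte culture over adult stroma passed in every alternative run, with adjusted p up to 0.0122, 0.00104 and 0.015 when single arrays were left out, and Rasl11b passed in none of that comparison. None of the 4 passed between adult and P10 stroma in any. Every member stayed higher in myofibroblast than in fibroblast culture. The size of that difference depends on the added constant, since fibroblast signals were within background: with 1 added it was 3.73 for Crabp2 and 2.85 for Tfpi2, and with 64 added 2.15, 1.80 and 1.52 for Crabp2, Rasl11b and Tfpi2. Counts of probe sets moved more. Between myofibroblast and fibroblast culture 111 became 253 with the replicate block, 16 with only the 2 groups in the fit and 61 to 151 without single arrays. Between fibroblast and keratocyte culture 142 became 83 with 1 added, 46 with only the 2 groups and 20 to 144 without single arrays (59 without fibroblast replicate 3). Between adult and P10 stroma 385 became 225 with only the 2 groups and 117 to 494 without single arrays, where a lone P10 array is assumed to vary like the other groups. The cause of these shifts was not tested, beyond the fewer arrays or residual degrees of freedom in the smaller fits. The replicate block changed no call of the 4 genes where they were tested. Scaling mattered for the split of calls: between keratocyte culture and adult stroma 2262 rose and 959 fell as deposited, against 1806 and 1584 with centred arrays and 1902 and 1640 with quantile normalization; centring moved the median log2 difference to -0.050, against 0.12 as deposited. Between myofibroblast and fibroblast culture 30 rose and 81 fell, against 53 and 82 with centred arrays and 63 and 95 with quantile normalization. Between adult and P10 stroma 47 rose and 338 fell, against 74 and 235 with centred arrays and 107 and 315 with quantile normalization. Without fibroblast replicate 3, an array singled out after the data were seen, 1 of 34 target genes rose and 0 fell, and 0 of 10 Smads and regulators passed. Of 16 ligands 1 rose in that fit, Inhba, and 1 fell, Inhbb. Inhbb was at the floor of 1 on all myofibroblast arrays, against 35.1, 30.5 and 6.89 in fibroblast culture, all within background. Of 7 endothelium markers 1 was lower, Cdh5. The counts of the other pathway lists did not change. Most member signals outside myofibroblast culture were within background, which limits what can be seen there.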
